A study of Oryza sativa with 46 samples.

Results

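Salt in the root medium first withdraws water from the plant and then loads its tissues with sodium and chloride, and rice is among the cereals most easily harmed by it. Seedlings answer with changes in water channels, in transporters, in cell wall and sugar metabolism and in the transcription factors that steer them. The loci described here were chosen by their signal in whole rice seedlings, which had to be lower under 120 mM NaCl than under 0 mM NaCl in the mean of each of the 8 genotypes tested.

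The rule took the log2 of the scanner's processed signal, normalized it between arrays so that all arrays share 1 distribution (quantile normalization), and averaged the spots of each probe. A probe had to be well above background, as the scanner software flags it, on all 23 arrays at 0 mM, and its 120 mM mean minus its 0 mM mean had to be -0.2 or lower in each genotype. Of 42477 probes for 29923 loci, 17940 probes for 12398 loci were well above background at 0 mM. The rule held for 82 of them (0.457%), and leaving out the aquaporin locus Os07g0448200 left 81 probes for 69 loci. In the opposite direction, with the filter set on the 120 mM arrays, 6 of 16677 probes (0.036%) were higher by 0.2 or more in every genotype, and with the filter on the 0 mM arrays 5 of 17940 (0.0279%) were. Since the salt contrast chose the members, their salt changes are given as a description, without a test.

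Each array was hybridised with RNA of a single seedling, taken 16 days after emergence, and all changes are on the log2 scale. The genotypes were 4 indica rices (the tolerant landrace Pokkali, the moderately tolerant varieties PSBRc50 and IR58, and the susceptible BRRIdhan 29), 2 japonica rices (the moderately tolerant Banikat and the susceptible Nipponbare) and 2 wild species described as susceptible (O. latifolia and O. rufipogon). Salt-treated seedlings had 48 h of stress, reached by way of a day at lower strength, and control seedlings grew in the same nutrient medium without NaCl. The medium was also given CaCl2. There were 3 arrays in each group except BRRIdhan 29 at 120 mM and IR58 at 0 mM, with 2 each. RNA of large seedlings came from sections of root, stem and leaf, and in such material fewer cells of a type and less RNA per cell cannot be told apart.

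The 46 arrays lay on 12 slides, and slides were shared by pairs of genotypes, so that slide and genotype pair cannot be told apart. Across all probes, 8 arrays had a higher correlation with the mean of another genotype than with the other arrays of their own label. They were PSBRc50 at 120 mM replicate 3, which correlated at -0.0268 with its own label and at 0.804 with Banikat, IR58 at 0 mM replicate 2, which was closest to BRRIdhan 29 (0.668), BRRIdhan 29 at 0 mM replicate 2, which was closest to IR58 (0.414), O. latifolia at 120 mM replicate 2, which correlated at 0.00804 with its own label and at 0.465 with PSBRc50, and the 4 arrays of Banikat and Nipponbare numbered 3, which shared 1 slide. On that slide, Nipponbare at 120 mM was closest to Banikat (0.84), Banikat at 120 mM and at 0 mM to Nipponbare (0.476 and 0.421), and Nipponbare at 0 mM to IR58 (0.413). Its groups also ran in the opposite order. Array positions 1 to 4 held Banikat at 0 mM, Banikat at 120 mM, Nipponbare at 0 mM and Nipponbare at 120 mM, while on both other slides of these genotypes positions 4 to 1 held them in that order. Whether labels were exchanged was not tested, and an exchange could change the size or the sign of the replicate 3 changes of Banikat and Nipponbare below. All arrays are kept under their labels, and results are given with and without these 8.

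This bears directly on the name of the group. With those arrays left out, the rule found 4 probes, of which 1, for Os08g0106300, was among the 81 members. Without only the 4 arrays of Banikat and Nipponbare on the shared slide, a choice made after the values had been seen, 5 probes passed, all of them members. Once the 8 arrays are left out, 80 of the 81 members thus miss the threshold in at least 1 genotype, which goes against a fall in all 8 genotypes, and the group is called here by its rule.

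In Banikat, the members' median change was -0.62 with all arrays and 0.39 without the 8, when 17 of 81 were at or below -0.2. In Nipponbare it was -0.91 with all arrays and 0.10 without them, with 24 of 81 at or below -0.2. The remaining 6 genotypes keep most or all of the arrays that the rule used, so their values are fixed by it in large part. Pokkali and O. rufipogon had none of the 8 arrays, so all 81 members are at or below -0.2 there by the rule, with medians of -0.81 and -0.92. After removal of the 8 arrays, 80 of 81 members were so in BRRIdhan 29 (median -1.54), 74 in PSBRc50 (-1.14), 74 in IR58 (-1.10, with 1 array left at 0 mM) and 63 in O. latifolia (-0.52, against -1.38 with all its arrays). By comparison, between 34.9% and 46.4% of all filtered probes were at or below -0.2 in any 1 genotype without the 8 arrays. In all, 53 members were at or below -0.2 in each of the 6 genotypes other than Banikat and Nipponbare, as were 1822 of the 17940 filtered probes (10.2%), and no member was so in fewer than 5 of the 8 genotypes.

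**Figure D1:**
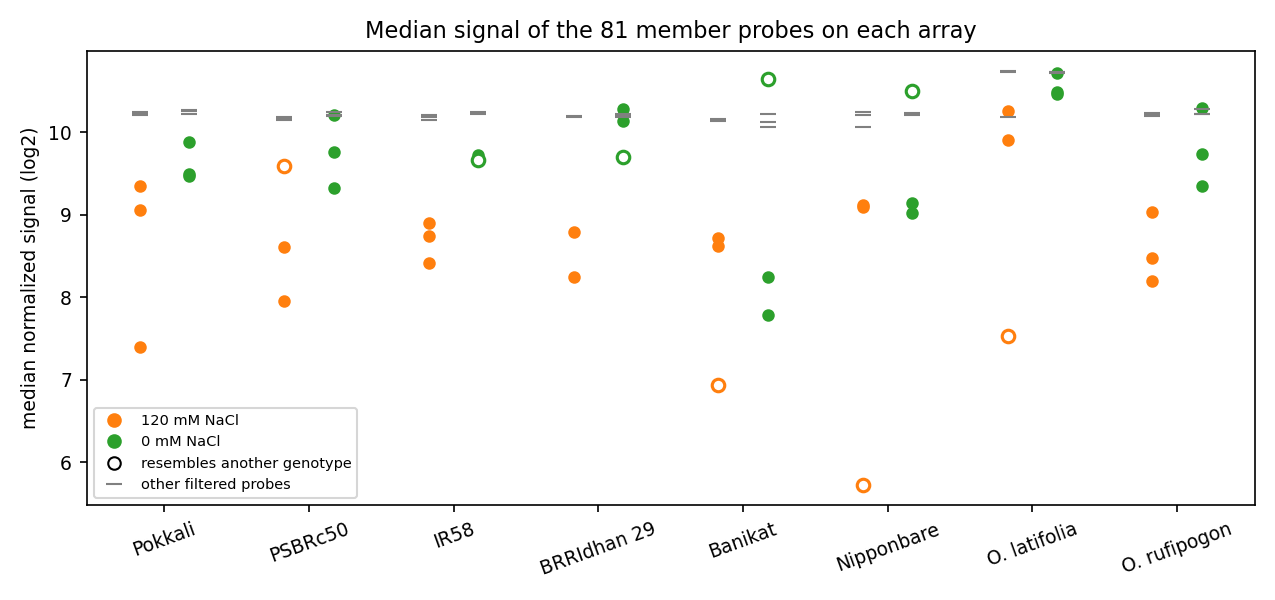
Median normalized signal (log2) of the 81 member probes on each array, with 120 mM arrays left of 0 mM arrays in each genotype; open circles mark the 8 arrays that resemble another genotype and grey dashes the median of the other filtered probes. The lowest point is Nipponbare at 120 mM replicate 3, at 5.73, and the 2 open circles of Banikat and Nipponbare at 0 mM stand above the filled ones.

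On single arrays, the median signal of the members lay at 8.71, 8.62 and 6.94 in Banikat at 120 mM, against 8.25, 7.78 and 10.64 at 0 mM. Replicate 3 was thus the lowest of its group under salt and the highest without it, and the other 2 salt-treated seedlings were above both of the other controls. In Nipponbare the medians were 9.12, 9.09 and 5.73 at 120 mM, against 9.02, 9.14 and 10.50 at 0 mM. Replicate 3 again held both extremes, and the other seedlings of the 2 treatments overlapped. In O. latifolia they were 10.25, 7.53 and 9.91 at 120 mM, against 10.46, 10.48 and 10.72 at 0 mM, so that the groups did not overlap, with replicate 2 farthest below. In IR58 (8.90, 8.74 and 8.42 at 120 mM, against 9.72 and 9.66 at 0 mM), BRRIdhan 29 (8.79 and 8.24, against 10.13, 9.70 and 10.28), Pokkali (9.06, 9.34 and 7.39, against 9.46, 9.49 and 9.88) and O. rufipogon (8.48, 9.03 and 8.19, against 9.35, 9.74 and 10.29) the 120 mM medians lay below every 0 mM median of the same genotype. In PSBRc50 (7.95, 8.61 and 9.59, against 9.75, 9.32 and 10.21) replicate 3 at 120 mM, which resembles Banikat, overlapped the controls. The median of the other filtered probes was between 10.06 and 10.74 on all arrays. As the members were chosen on these arrays for lower 120 mM means, the order of the treatments is a description.

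The 0 mM and 120 mM seedlings of 1 replicate number shared a slide in 21 of 22 pairs, so these 21 give a change within a slide. The pair of BRRIdhan 29 numbered 2 lay on different slides. The members' median change was below 0 in 19 of 22 pairs. It was 0.54 in Banikat replicate 2, where 24 of 81 members were lower under salt, beside 49.4% of the other filtered probes. In Nipponbare replicates 1 and 2 it was 0.21 and 0.09, where 34 and 33 members were lower, beside 50.5% and 47.3% of the other filtered probes. At the other end stood O. latifolia replicate 2 at -3.14 (81 of 81 lower), Nipponbare replicate 3 at -3.07 and Banikat replicate 3 at -2.59 (80 of 81 each). Of the other filtered probes, 70.1%, 59.8% and 49.5% were lower in these pairs, in the same order. In that O. latifolia pair the median of the other filtered probes was also low, at -0.86, while in Banikat replicate 3 it was 0.01. Over the 16 pairs without any of the 8 arrays, a member was lower under salt in a median of 12 pairs (range 9 to 15). The rule used these arrays too, and the like count for the other filtered probes is not given here.

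**Figure D2:**
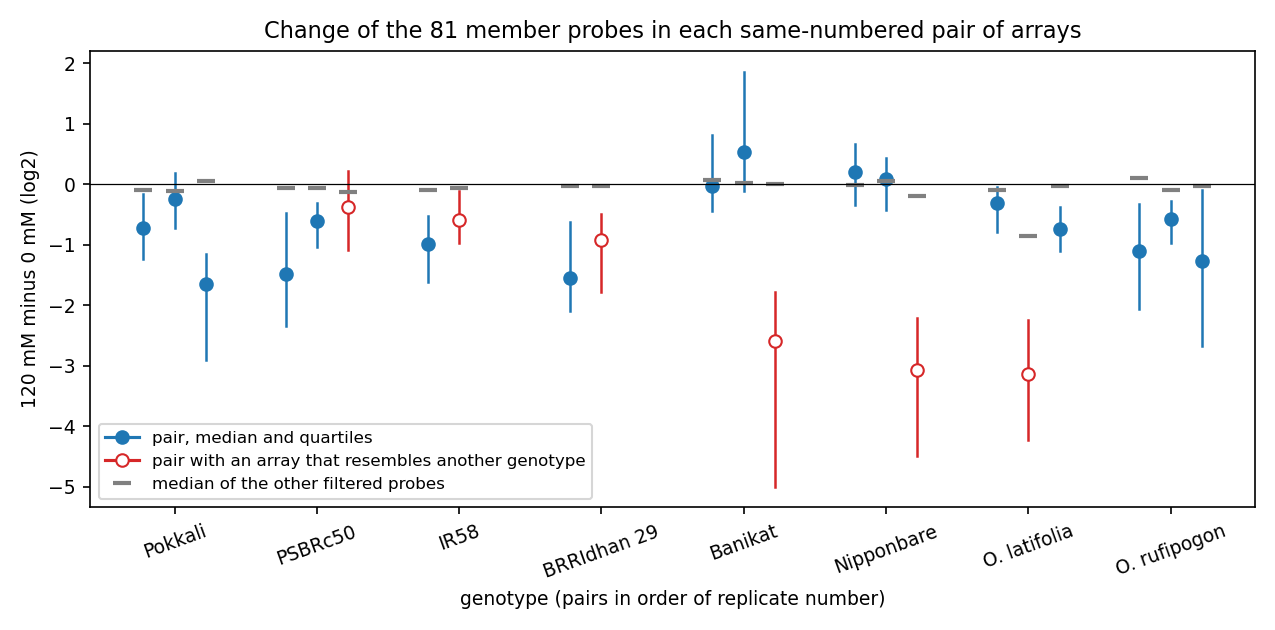
Change under salt (120 mM minus 0 mM, log2) of the 81 member probes in each of the 22 same-numbered pairs of arrays, as medians (circles) with quartiles (lines); open red circles are pairs with an array that resembles another genotype, and grey dashes the median of the other filtered probes. The pairs of Banikat and Nipponbare numbered 3 and of O. latifolia numbered 2 lie below -2.5, and the remaining pairs of Banikat and Nipponbare lie around 0.

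Over the 8 genotypes, the mean change of a member ranged from -1.96 to -0.47 with a median of -0.99, where the median of all filtered probes was -0.08. With the 8 arrays left out the range was -1.51 to -0.21 with a median of -0.72, against -0.03 for all filtered probes, and the mean of each of the 81 members was below 0. The members spanned the range of signals, with means of 4.48 to 14.41 at 120 mM and 5.13 to 15.20 at 0 mM. Under salt, 53 of the 81 were well above background on all 23 arrays and the others on 17 to 22, while 88.7% of all filtered probes were so on all 23. The one member that was not well above background on any array of a group was that of Os03g0361100 in BRRIdhan 29 at 120 mM, so its change there is a bound.

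The 2 probes with the largest mean changes belonged to Os08g0460000, for which the sources used here give no role. All 5 of its probes on the array were members, with mean changes of -1.96 to -1.74. For the probe with the largest change, the lowest, median and highest signals were 5.08, 12.57 and 14.43 at 120 mM, against 10.31, 13.65 and 15.42 at 0 mM. Single salt-treated seedlings were far below the rest. In O. rufipogon its signals were 5.08, 13.75 and 13.25 at 120 mM, against 15.03, 14.38 and 13.65 at 0 mM. On the array of the lowest of these seedlings, the 4 other probes of the locus read 11.09 to 13.22, so that value rests on 1 probe. In Pokkali the probe with the largest change had 11.07, 12.57 and 6.40 at 120 mM, against 13.29, 13.41 and 12.17 at 0 mM. Banikat showed 13.68, 14.43 and 6.71 at 120 mM, against 13.97, 10.31 and 14.54 at 0 mM, and Nipponbare 13.16, 14.29 and 5.64, against 12.88, 14.12 and 12.97. In each of these genotypes 1 salt-treated seedling stood far below the next, and over the 16 pairs without the 8 arrays the change was -1.70 ± 3.07 (SD), a spread larger than the change. Its change without the 8 arrays was 1.91 in Banikat and 0.23 in Nipponbare.

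Os08g0106300, again without a given role, was the member that met the rule with and without the 8 arrays. It was singled out for this, so the separation of its groups below is a description. Its changes ran from -1.10 in BRRIdhan 29 to -2.45 in O. latifolia, with a mean of -1.67 ± 0.47 (SD over 8 genotypes), and without the 8 arrays from -0.54 in IR58 to -2.47 in BRRIdhan 29. It was lower under salt in 20 of 22 pairs and in 15 of the 16 pairs without the 8 arrays, with a mean of -1.15 ± 1.00 (SD) over those 16. In PSBRc50 it had 7.16, 8.03 and 5.99 at 120 mM, against 9.29, 9.20 and 8.81 at 0 mM, and in O. latifolia 11.26, 7.21 and 11.56 at 120 mM, against 12.73, 12.62 and 12.03 at 0 mM. In neither genotype did the groups overlap. In Banikat it had 6.05, 5.79 and 5.51 at 120 mM, against 6.37, 8.65 and 6.23 at 0 mM, and in Nipponbare 7.03, 6.28 and 5.67, against 7.72, 7.21 and 8.84, so that also in these 2 genotypes every salt-treated seedling was below every control. In IR58 (9.31, 7.44 and 6.57, against 8.31 and 11.38), BRRIdhan 29 (10.54 and 8.81, against 11.48, 8.02 and 12.82) and O. rufipogon (7.92, 8.31 and 8.67, against 8.48, 9.40 and 11.47) the groups overlapped, and in Pokkali (8.10, 7.10 and 8.25, against 8.35, 9.16 and 9.88) they did not.

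Next by probe came Os02g0616100 and Os01g0127000, with mean changes of -1.84 and -1.81, ahead of the remaining 3 probes of Os08g0460000. By locus, with member probes averaged, Os02g0616100 (-1.84) and Os08g0460000 (-1.83) were nearly level. Os02g0616100 had a smallest change of -1.20, in Banikat, and without the 8 arrays its change there was 0.98. In O. rufipogon its member probe had 6.61, 14.00 and 14.92 at 120 mM, against 14.45, 13.13 and 12.15 at 0 mM. By this probe 1 array was far below and the others were at the level of the controls. The 20 other probes of the locus were higher under salt in O. rufipogon, by 0.19 to 1.05. Os01g0127000 was lower in PSBRc50 (7.34, 5.23 and 8.81 at 120 mM, against 11.38, 9.31 and 11.83 at 0 mM), where the groups did not overlap. In Banikat it had 7.30, 6.93 and 6.96 at 120 mM, against 5.00, 6.39 and 11.95 at 0 mM, where only the control of replicate 3 was above the salt-treated seedlings.

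**Figure D3:**
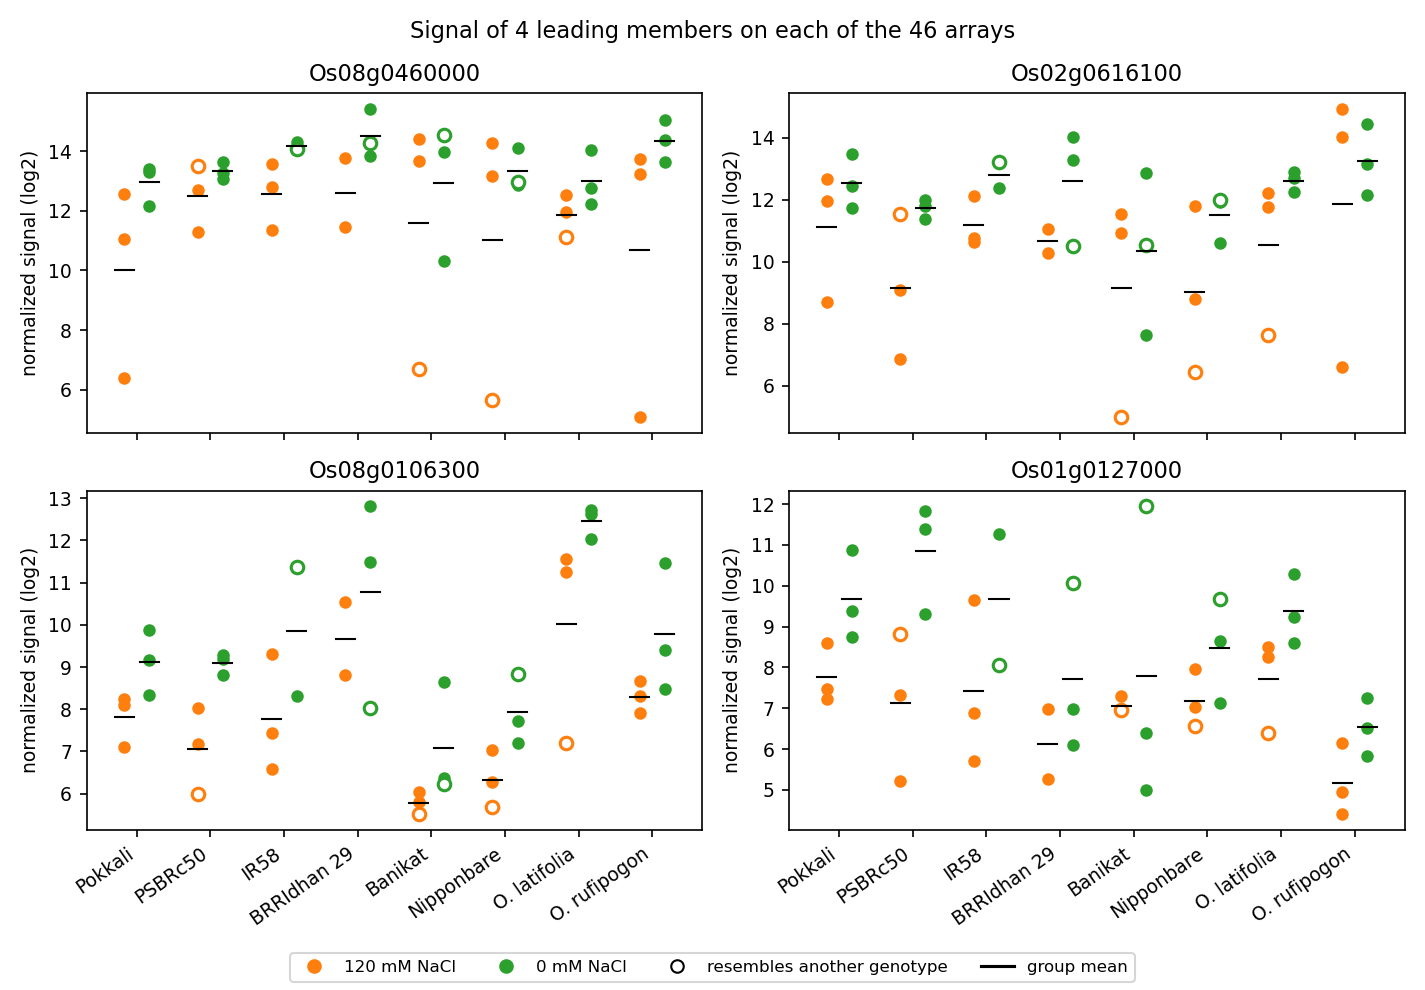
Normalized signal (log2) of the member probes with the largest mean change of 4 loci on each of the 46 arrays, 120 mM left of 0 mM in each genotype; bars are group means and open circles the 8 arrays that resemble another genotype. Single arrays at 120 mM pull down the means of the probes shown for Os08g0460000 and Os02g0616100. For Os08g0106300 the 2 treatments do not overlap in 5 of the 8 genotypes, which describes a probe chosen for its lower 120 mM means.

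The remaining probes among the 12 with the largest mean change were those of Os01g0347500 (-1.61), of Os10g0150600 (-1.56 and -1.53) and of Os02g0753000 (-1.54). The 2 probes of Os10g0150600 had 1.34 and 1.30 on their lowest 120 mM array, against 9.78 and 9.76 on their lowest 0 mM array, and changed by 0.08 and 0.10 in O. latifolia without the 8 arrays. Its neighbour by locus number, Os10g0150700, was a member too, at -1.24. Os02g0753000 was a dim member, with means of 5.62 at 120 mM and 7.11 at 0 mM, and was well above background on 17 of the 23 arrays at 120 mM.

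The brightest members were Os07g0148900, with means of 14.41 at 120 mM and 15.20 at 0 mM, and Os04g0644400. All 5 probes of Os04g0644400 on the array were members. Their mean changes of -1.51 to -1.44 differed by less than 0.1, and the probe with the largest had 9.73, 13.96 and 16.17 as its lowest, median and highest signal at 120 mM, against 9.55, 14.95 and 17.01 at 0 mM. Each of the 5 probes had its smallest change in Banikat, at -0.32 to -0.20, and a change there of 2.30 to 2.40 without the 8 arrays, while the 7 other genotypes kept their sign. Once the 8 arrays were left out, the mean of this locus was thus lower under salt outside Banikat and higher in Banikat. Banikat then kept 2 arrays per treatment. For the probe with the largest change, its 0 mM arrays included the lowest one, at 9.55, so the rise there rests on that low control. For Os07g0148900 the mean change was -0.84, and without the 8 arrays it was 1.36 in Banikat and 0.38 in Nipponbare.

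**Figure D4:**
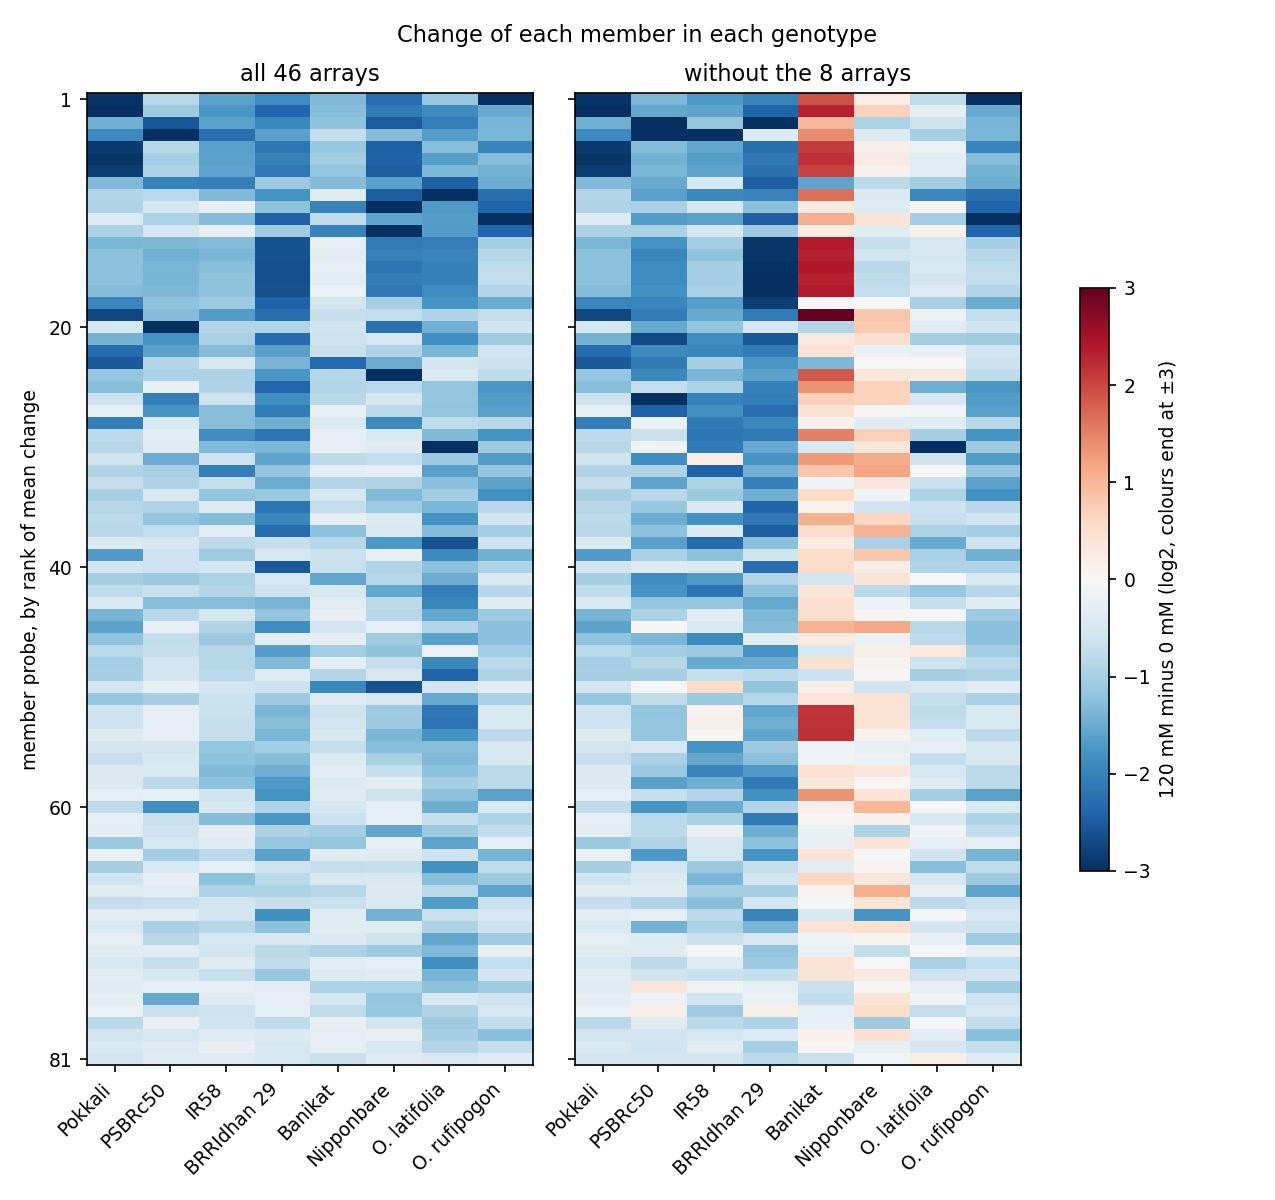
Change under salt (120 mM minus 0 mM, log2, colours end at 3 and -3) of each member probe, ordered by mean change from the largest fall, in each genotype, with all 46 arrays and without the 8 that resemble another genotype. With all arrays every cell is at or below -0.2 by the rule, and without the 8 arrays the columns of Banikat and Nipponbare hold most of the red cells.

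Several probes of 1 locus show how far membership follows from the locus. More than 1 member probe belonged to 5 loci, Os08g0460000 and Os04g0644400 with 5 each, Os05g0189300 with 3, and Os05g0114400 and Os10g0150600 with 2 each. In 23 member loci, 68 further probes missed the rule, 42 of which passed the filter. All 42 had a mean change below 0, and 27 missed in 1 genotype only. Of all 68, 66 had a mean change below 0. Os02g0616100 had 21 probes, and the 20 that missed had mean changes of -1.65 to -1.20 and missed in O. rufipogon alone, where the member probe had a change of -1.40, against 0.19 to 1.05 for these. At Os07g0148900 the member probe had a mean change of -0.84, against -0.36 for the other probe. There were 2 member probes that carry a second identifier of another locus on the array (those of Os01g0803600 and Os11g0121000) and 11 with one that names no locus, so their targets are less certain.

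A role was annotated in the tables of the study for 10 of the 69 loci, and 4 more were listed there as hypothetical or without a hit. Among transporters, the annotated major intrinsic protein Os06g0228200, of the family of membrane channels for water and small solutes, had lowest, median and highest signals of 10.29, 11.58 and 12.89 at 120 mM, against 10.22, 12.47 and 14.27 at 0 mM. Its mean change was -0.80 with all arrays and -0.73 without the 8, and it was lower in 18 of 22 pairs. In Banikat it changed by 0.39 without the 8 arrays. Os03g0641200, of the amino acid and polyamine transporter family, had the smallest mean change of the members and the narrowest spread, -0.47 ± 0.10 (SD over 8 genotypes), with 4.71, 6.19 and 9.96 at 120 mM, against 5.26, 6.82 and 9.87 at 0 mM.

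A group of 3 members was annotated as transcription factors, proteins that bind DNA and set the activity of other genes. Os04g0597300, with a WRKY domain, a class known for its part in plant stress responses, changed by -0.88 in the mean and was lower in 19 of 22 pairs. Its signals were 3.38, 5.24 and 8.90 at 120 mM, against 3.30, 5.85 and 9.45 at 0 mM. Os04g0548700, with a homeobox domain, changed by -0.72 and was lower in 20 of 22 pairs, with 3.35, 5.22 and 9.20 at 120 mM, against 3.49, 5.78 and 9.37 at 0 mM. The MADS box gene Os02g0682200, of a family known best for floral development, changed by -0.62 by its member probe. That probe had 1.43, 4.33 and 8.63 at 120 mM, against 4.01, 4.63 and 9.03 at 0 mM. The other probe of this locus, which did not pass the filter, had a mean change of -0.08. It met the threshold of the rule in 3 genotypes only and was higher under salt by 1.52 in IR58. The ranges of the 2 treatments overlapped in all 3 members, and O. latifolia was above the other genotypes. For the member probe of the MADS box gene the lowest 120 mM array lay below every 0 mM array.

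Among enzymes and kinases, Os04g0613700, annotated in the family of UTP-glucose-1-phosphate uridylyltransferases, which make the sugar donor for sucrose and cell wall synthesis, changed by -0.73 and was lower in 19 of 22 pairs. It had 10.25, 11.34 and 12.30 at 120 mM, against 10.67, 12.16 and 13.01 at 0 mM, and without the 8 arrays its changes in Banikat and Nipponbare were 0.44 and 0.48. Os03g0762000, the alpha (catalytic) subunit of casein kinase II, changed by -0.66 with all arrays and by -0.29 without the 8. Os05g0584600, with the central domain of AAA ATPases, changed by -0.94 and was the member next to the threshold in O. latifolia, at -0.20. The other probe of its locus, which did not pass the filter, changed by -0.28 and was at or below -0.2 in 4 of the 8 genotypes. Os03g0361100, with a domain like that of terpene synthases, the enzymes that build terpenes, changed by -0.75. Os11g0678200, with a DOMON domain, changed by -1.37 with all arrays and -0.59 without the 8, and the genotypes that moved most were Nipponbare, from -2.23 with all arrays to 0.78 without the 8, and PSBRc50, from -3.81 to -1.51.

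By the study's annotation, which gives a role for 10 of the 69 loci, none of these families had more than 1 member locus. The member Os07g0448100, on the list of water channels below, has no annotation there and is not counted. The counts for each family below include the probes of its member locus, so its calls and median are a description. Across all probes the mean salt effect over the genotypes passed the test downward for 0.713% of probes and upward for 1.23% (limma, Benjamini-Hochberg adjusted p at or under 0.05), and for 0.992% and 1.81% of the filtered probes. Without replicate 1 of all groups 0 probes were called (limma), with 4227 at an unadjusted p at or under 0.05, so none of the calls in the lists here holds without it. Of 34 probes for the 21 loci annotated as WRKY, 1 was called lower and 0 higher, with a median change of -0.01. Of 84 probes for 38 homeobox loci, 0 were called lower and 6 higher, with a median of -0.0048. Of 11 probes for 5 loci annotated as major intrinsic proteins, 4 of them for the member locus, 2 were called lower and 0 higher, with a median of -0.42. Of 5 probes for 2 annotated uridylyltransferase loci, 3 of them for the member locus, 1 was called lower and 0 higher, with a median of -0.61. In the other families few or no probes were called. For MADS box loci 0 of 34 probes were called, with a median of -0.17, for casein kinase II 0 of 5, with a median of -0.26, for amino acid transporters 0 of 10, with a median of 0.09, and for terpene synthases 0 of 11, with a median of 0.08. Of 16 probes for AAA ATPases, 1 was called lower and 1 higher, with a median of 0.0066.

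A list of 10 loci of plasma membrane water channels, drawn up from general knowledge of rice and of which the study's tables annotate 1, includes the member Os07g0448100. It lies 100 locus numbers from the aquaporin locus that the rule leaves out. It had 7.87, 10.16 and 13.31 as lowest, median and highest signal at 120 mM, against 8.05, 11.29 and 14.55 at 0 mM, and its mean change was -1.29 with all arrays and -1.17 without the 8. Its changes without the 8 arrays were -2.52 in Pokkali and -2.11 in PSBRc50 but 0.01 in Nipponbare and -0.01 in O. latifolia. Of 30 probes for this list, 23 had a mean change below 0, 0 were called in either direction, and the median was -0.26. Of 28 probes for a list of 10 tonoplast water channels, 19 were below 0, 0 were called, and the median was -0.14.

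Markers of organs were set beside the members, since whole seedlings mix them. Both organs were present. Of 41 probes for 6 leaf loci, 38 were well above background on all 46 arrays, and their summed signal (log2 of the sum) was 21.52 to 22.58 at 120 mM, against 21.44 to 22.67 at 0 mM. Of 17 probes for 10 root loci, 5 were well above background on all arrays, and the sum was 13.85 to 17.32 at 120 mM, against 14.67 to 17.19 at 0 mM. The mean salt effect was below 0 for 14 of the 17 root probes, with 0 called in either direction and a median change of -0.45, and for 31 of the 41 leaf probes, with 5 called lower, 0 higher and a median of -0.08. None of these loci was a member. Of 20 probes for 15 loci annotated as histones, which dividing cells need, 16 were below 0, 0 were called, and the median was -0.70. The part of organ make-up and cell division in the members' changes was not tested.

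The rule set no condition on level differences between genotypes, averaged over both treatments, but these are not independent of it. The filter kept only probes well above background at 0 mM in every genotype. An array that resembles another genotype can also turn a level difference into a salt change. In O. latifolia, 56.2% of filtered probes were at or below -0.2 with all arrays and 34.9% without the 8. The counts below thus describe the members. Of the 81 members, 37 (45.7%) differed between the 8 genotypes by an F test across all probes (limma, adjusted p at or under 0.05), where 63.2% of the filtered probes and 71.2% of all probes did. When the 8 arrays were left out 58 members did, and 75.3% of the filtered probes. The share of members was below that of the filtered probes in both. These shares count probes and not loci. With all arrays, none of the 5 probes each of Os08g0460000 and Os04g0644400 was called. The 5 smallest adjusted p-values belonged to Os03g0641200 (4.57e-08), Os03g0361100 (1.52e-07), Os02g0682200 (8.82e-07), Os04g0597300 (9e-07) and Os04g0548700 (9.34e-07). Each of the 5 stayed called when any 1 of the 46 arrays was left out.

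In all 5 the highest genotype was O. latifolia, a wild rice more distant from the cultivated rices for which the probes were designed. Its mean over both treatments was 9.40 for Os03g0641200, where the other 7 genotypes lay between 5.65 and 6.87, and 8.12 for Os02g0682200, where they lay between 3.92 and 4.46. For Os03g0361100 it was 9.30, where the others lay between 4.18 and 6.37. Os04g0597300 had 8.33 in O. latifolia and 4.19 to 5.64 elsewhere, and Os04g0548700 had 8.47 and 4.26 to 5.86.

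Against the mean of the other 7 genotypes, 48 of 81 members (59.3%) were higher in O. latifolia and 1 (1.23%) was lower, where 58.3% of the filtered probes were higher and 14.9% lower, and of all probes 44.8% and 29.6%. The share that was higher is thus near the background. The 1 lower member was Os07g0448100, on the water channel list, at -1.91 ± 0.59 (SE, adjusted p = 0.00457). The largest differences upward were those of Os01g0803600 (4.12, adjusted p = 3.59e-09), Os03g0361100 (3.96 ± 0.44, SE, adjusted p = 1.92e-09) and Os02g0682200 (3.81 ± 0.41, SE, adjusted p = 1.02e-09). The median difference was 1.46 for the members and 0.76 for the filtered probes. It was 2.097 for dimmer members and 1.497 for dimmer filtered probes, and 1.12 and 0.37 for brighter ones. Among the 40 members below the members' median signal at 0 mM, 32 (80%) were higher in O. latifolia, as were 80.3% of filtered probes below that signal, and among the 41 brighter members 16 (39%) were, as were 43.2% of the brighter filtered probes. O. latifolia was hybridised on slides it shared with O. rufipogon only. With the 8 arrays removed, 62 members were higher and 2 lower. The share of filtered probes in that fit is not given here, so these counts are not read as a trait of the members.

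**Figure D5:**
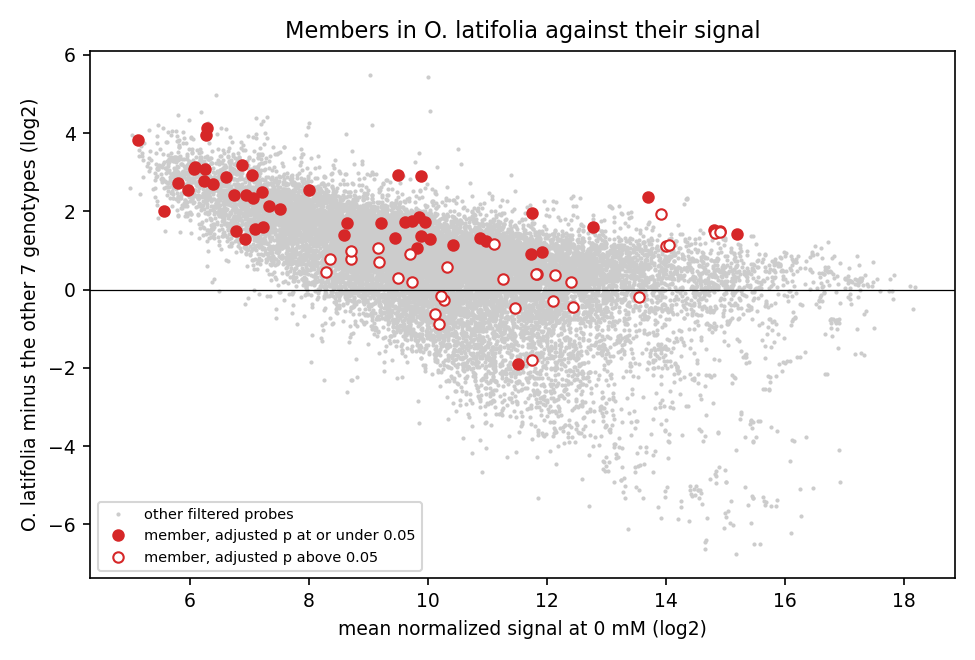
O. latifolia minus the mean of the other 7 genotypes (log2, averaged over both treatments) against the mean signal at 0 mM for each member (red, filled where the adjusted p was at or under 0.05) and for the other filtered probes (grey). The members of lowest signal all lie above 0, and the members follow the downward slope of the grey cloud.

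Between the japonica rices (Banikat and Nipponbare) and the 4 indica rices, 5 members (6.17%) were lower and 2 (2.47%) higher in japonica, where 1.49% of the filtered probes were lower and 1.72% higher, and 1.95% and 3.52% of all probes. The share of members that was lower is not independent of the rule. The arrays of PSBRc50 and Nipponbare at 120 mM numbered 3 were closest to Banikat. A low level in Banikat could thus help a probe to pass the rule in those genotypes. The 5 lower were Os11g0678200 (-3.04 ± 0.75, SE, adjusted p = 0.0132), Os01g0347500 (-2.20 ± 0.59, adjusted p = 0.0228), Os08g0106300 (-2.12 ± 0.45, adjusted p = 0.0033), Os01g0803900 (-1.57 ± 0.43, adjusted p = 0.0255) and Os03g0762000 (-1.39 ± 0.42, adjusted p = 0.048). Os11g0678200, the DOMON domain gene, averaged 5.06 in Banikat and 8.19 in Nipponbare, against 11.48 in Pokkali, 9.80 in IR58, 9.22 in BRRIdhan 29 and 8.15 in PSBRc50, so the low value was that of Banikat. Os08g0106300 averaged 6.43 in Banikat and 7.13 in Nipponbare, against 8.08 to 10.23 in the indica rices. The 2 higher were Os03g0361100 (1.67 ± 0.36, adjusted p = 0.00385) and Os03g0641200 (0.88 ± 0.26, adjusted p = 0.0374). Leaving out any 1 array kept the calls of Os11g0678200, Os08g0106300 and Os03g0361100, while those of Os01g0347500 and Os01g0803900 held in 42 of 46 such fits, that of Os03g0641200 in 27 and that of Os03g0762000 in 6. All 7 were also called without the 8 arrays, together with 6 other members that were lower in japonica (13 in all, where 12.2% of filtered probes were called). All japonica arrays lay on slides of their own, so subspecies and slide cannot be told apart in this contrast.

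The members also varied together. The mean correlation between 2 members across the 46 arrays was 0.48, against 0.09 between 2 filtered probes, and it was 0.43 against 0.10 across the 38 arrays that remain without the 8. These arrays share slides and the rule itself asked for a like change, so the value is a description. The 69 loci lay on all 12 chromosomes by their locus numbers, with 8 on chromosome 1 and 9 each on chromosomes 2, 4 and 5. Chromosome 4 held 13.0% of member loci and 8.7% of filtered loci, and chromosome 9 held 1.45% and 5.2%. Probes designed on expressed sequence tags made up 27.2% of the members and 12.9% of the filtered probes, and probes on mRNA 69.1% and 84.6%. By locus number, Os10g0150600 and Os10g0150700, and Os01g0803600 and Os01g0803900, lay near each other.

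At the threshold, the members just inside it were those of Os06g0721600 (-0.20 in Pokkali), Os05g0584600 (-0.20 in O. latifolia) and 1 probe of Os04g0644400 (-0.20 in Banikat). Just outside it were probes of Os08g0118100 (-0.199 in IR58), Os02g0648100 (-0.1988 in Pokkali) and Os05g0190500 (-0.1974 in Pokkali), whose mean changes of -0.51, -0.70 and -0.87 were within the range of the members.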

How the data were processed

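Total RNA of whole rice seedlings was labelled with Cy3 and hybridised to Agilent 4x44K rice arrays in 1 colour. Per the file headers, the authors' Agilent Feature Extraction (10.7.3.1) gave the deposited intensity per spot, from which local background had been taken and which carries no scaling across arrays. A second deposited table holds log2 values of 42475 probes, which the authors had quantile-normalized. Its differences between arrays correlated at 0.9993 or more with those of the signals used here (slopes 0.994 to 1.00), and its column medians were -0.17 to 0.51, so it is on the log2 scale, shifted by a constant per probe whose origin is not given in the sources used here. It was used as an alternative. The array holds 45151 spots, of which 43734 are not controls, with no saturated probe. Between 20914 and 36693 probes were well above background per array, a probe counting so where a share of at least 0.5 of its spots was flagged so. The number of arrays limits the precision.

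The log2 processed signal was quantile-normalized over 46 arrays and the spots of a probe averaged. The members were found on these values. For most changes, levels and tests, spots flagged as outliers (19 to 563 per array) were left out, which gives 1 member more by the rule. Flagged spots were kept for the medians, quartiles and counts over the members in each pair of arrays. They were also kept for the correlations of arrays with genotypes and of same-numbered arrays. The same holds for values next to the threshold and for the number of genotypes in which other probes of member loci passed it. Group means of the 16 groups were fitted with limma 3.58.1 (lmFit and eBayes, 1 shared spread) in R 4.3.3, adjusted by Benjamini-Hochberg over all probes. The steps were tested on simulated arrays. Groups came from the labels. Replicates were single seedlings by the study's methods. Alternatives were other scalings, background correction by normexp (offset 50, on median signals), the deposited table, other filters and thresholds, the slide, the scan day or the replicate number as a block, and leaving out arrays, replicates, O. latifolia or, chosen after the values had been seen, Banikat and Nipponbare, their 4 arrays on 1 slide, and each array in turn.

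The members and the lists of genes were chosen with earlier results of these data known. Named were the 12 member probes with the largest mean change, the 5 brightest, the 5 whose smallest change was largest in size, annotated members, the 5 with the smallest adjusted p between genotypes, probes next to the threshold and other probes of member loci. Other members named were chosen after their values were seen. Loci are named as in the probe names. The locus table provided matched 0 members, and annotations came from the study's tables. No sequence of the probes was used here.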

Additional observations from a re-analysis of the deposited data

How the results depend on the processing

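The number of probes that passed the rule was 4 without the 8 arrays that resemble another genotype and 5 without the 4 arrays of Banikat and Nipponbare on 1 slide, against 81. Leaving out 1 replicate number or 1 array gave 3 to 245. Without replicate 3 of all groups 0 of the 81 members remained, without replicate 1 34 did, and without replicate 2 41 did. Of single arrays, leaving out Banikat at 0 mM replicate 2 gave 187 probes, Banikat at 0 mM replicate 3 gave 26 and Nipponbare at 120 mM replicate 3 gave 36. Normexp gave 51 probes, 130 passed without O. latifolia, 2275 without Banikat and Nipponbare, 161 at a threshold of -0.1 and 43 at -0.3, 53 with the filter on all 46 arrays and 149 with no filter. Scaling to the 75th percentile, which shifts the median salt change of all probes from -0.01 to 0.11, gave 61, 55 of them members. The median change of the members kept its sign under every alternative run and was -1.18 to -0.66 when 1 replicate number or array was left out. Since this change chose the members on the same arrays, its sign was largely set by the rule and is no support for it.

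Members differing between genotypes numbered 58 without the 8 arrays and 5 without O. latifolia, 48 without the 4 arrays on 1 slide, and 13 to 42 when 1 replicate number or 1 array was left out. Against O. latifolia the count was then 29 to 58. Between japonica and indica it was 1 to 9, and 4 with normexp, 13 without the 8 arrays and 3 with scan day as a block. Most counts of members in this paragraph stand without the share of filtered probes called in the same run. They are thus not read as a trait of the members. The mean salt effect over all probes, 824 calls, gave 1380 with normexp, 1253 without the 8 arrays, 218 without O. latifolia, 1448 with scan day as a block, 1351 fitted on the filtered probes, 177 without the 4 arrays on 1 slide, 6982 without Banikat and Nipponbare, and 0 to 2455 when 1 replicate number or 1 array was left out. The 0 is without replicate 1, where 4227 probes had an unadjusted p at or under 0.05 in limma. The cause of these differences was not tested. With the replicate number as a block, 69 probes passed the rule, the members' median change was -0.95, 38 members differed between genotypes, 50 in O. latifolia and 6 between japonica and indica, and the mean salt effect had 12 calls, 2 lower and 10 higher, so that not all calls given for leaf markers and gene families hold. Deviations of same-numbered arrays of a genotype from their group means correlated at -0.0327 to 0.462, above 0.1 in 8 of 22 pairs, and 15 of 22 salt-treated arrays were closest to the control of their own number. All 3 pairs of Banikat were above 0.1, and no other genotype's pairs all were. Since not every pair was above 0.1, the main tests have no block. With slide as a block, 79 probes passed the rule.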
